A study of Mus musculus with 16 samples.

Results

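The genes described here form the secretory and unfolded protein response machinery of the endoplasmic reticulum (ER) in mouse macrophages. They were given as a list of 42 gene symbols, chosen by function and not by a threshold on the measured values. Earlier results of these data were known when the list was chosen. Its shares against all tested genes are therefore descriptive and not independent support. Of the 42 genes, 40 had a probe set assigned to a single symbol, and all 40 were among the 11634 genes tested out of 19938 genes with such a probe set. The other two were not analysed here: the probe sets of Sec61g, a small subunit of the translocation channel, also carry other symbols, and Kdelr2, a receptor that returns escaped ER proteins, had no listed probe set.

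Gene expression was measured on 16 Affymetrix mouse gene arrays hybridised with biotin-labelled total RNA from macrophages of male C57BL/6 mice. Alveolar macrophages (AM), which live in the airspaces of the lung, were sorted from digested lungs of untreated Bhlhe40+/+ mice (WT, 2 arrays) and Bhlhe40-/- mice (KO, 2 arrays). Large peritoneal macrophages (LPM), sorted from peritoneal lavage, came from untreated WT and KO mice (3 arrays each) and from mice given IL-4c. IL-4c is interleukin-4 delivered as a complex, which drives alternative activation and local proliferation of resident macrophages. It was injected on days 0 and 2, and cells were taken on day 4 from WT mice, KO mice and LysM-Cre+ Bhlhe40fl/fl mice (LysM, 2 arrays each). In LysM mice Cre is made in myeloid cells, so deletion is limited to that lineage, whereas KO mice lack the gene in all cells. Bhlhe40 encodes a repressor of transcription of the basic helix-loop-helix family. No ages are given. No label states that arrays of a group are separate mice or pools of mice. The p-values therefore reflect only how far arrays of a group spread, which may be technical.

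Proteins bound for secretion, the plasma membrane or lysosomes enter the ER through the Sec61 channel. There the signal peptidase removes the signal peptide, the oligosaccharyltransferase adds N-linked glycans, and chaperones, lectins and disulfide isomerases fold the chain. Chains that do not fold are taken back to the cytosol by ER-associated degradation (ERAD). When unfolded protein builds up, the sensors Ern1 (IRE1alpha), Atf6 and PERK start the unfolded protein response, in which IRE1 splices Xbp1 RNA and the factors XBP1 and ATF6 raise transcription of chaperone and ERAD genes. The arrays measure the amount of RNA of each gene and not the splicing of Xbp1 or the cleavage of Atf6.

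Many targets of ATF6 carry the ER stress response element (ERSE) in their promoters, so promoter sequences were read for the members. RefSeq promoter windows (GRCm38.p6, 250 bases before to 50 bases after the gene start) were at hand for 32 of the 42 members. For Edem1 and Spcs2 the window lay away from the listed gene start, which was not read. Both are counted below as members without an ERSE. The ERSE, which is CCAAT, then 9 bases of any kind, then CCACG, was searched on both strands and found in 9 of these 32 genes (28.1%), against 0.137% of all 27025 genes with a window. A second form, ERSE-II (ATTGG, 1 base of any kind, CCACG, both strands), was found in Herpud1 and Dnajb11 (6.25% of members against 0.0444% of all genes). The element named UPRE (TGACGTGG, both strands) was in 0 of the 32 (0.714% of all genes). Bhlhe40 is known to bind E-boxes of the form CACGTG, which reads the same on both strands. That form was present in Dnajb9, Calr, Derl3 and Ssr1 (12.5% against 8.09% of all genes), and it overlaps no ERSE match in these genes. A match is a description of the letters and not a shown binding site.

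The ERSE matches lay between -212 and -26 relative to the gene start. They are printed 5′ to 3′ on the strand of each gene, with the match in capitals and 15 bases on either side. Because the members were chosen as genes of this response, a high share with its element is no independent result. Herpud1 is shown with its ERSE-II match. Hsp90b1 holds 2 ERSE matches, one in each orientation.
Creld2 (chr15:88819505-88819553, + strand): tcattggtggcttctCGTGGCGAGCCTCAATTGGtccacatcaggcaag
Dnajc3 (chr14:118937812-118937860, + strand): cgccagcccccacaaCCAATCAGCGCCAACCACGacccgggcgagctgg
Hsp90b1 (chr10:86705623-86705671, - strand): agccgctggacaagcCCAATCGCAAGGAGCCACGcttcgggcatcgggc
Hsp90b1 (chr10:86705518-86705566, - strand): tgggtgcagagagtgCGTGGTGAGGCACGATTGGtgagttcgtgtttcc
Calr (chr8:84847060-84847108, - strand): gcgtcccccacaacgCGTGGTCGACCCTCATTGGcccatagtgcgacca
Canx (chr11:50325785-50325833, - strand): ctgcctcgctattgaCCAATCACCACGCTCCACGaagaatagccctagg
Derl3 (chr10:75893227-75893275, + strand): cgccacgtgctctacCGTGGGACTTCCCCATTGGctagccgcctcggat
Syvn1 (chr19:6046517-6046565, + strand): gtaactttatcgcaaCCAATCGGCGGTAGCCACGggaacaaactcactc
Herpud1 (chr8:94386362-94386402, + strand): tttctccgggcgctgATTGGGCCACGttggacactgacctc

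The other two genes with an ERSE, Pdia6 and Hspa5, are shown with all 250 bases before the gene start. Pdia6 had the largest IL-4c difference among the members, and Hspa5 is the chaperone that the response is best known for. Ern1, which differed in the opposite direction, is shown the same way and holds none of the 4 motifs in its window.
Pdia6 (chr12:17266339-17266588, + strand): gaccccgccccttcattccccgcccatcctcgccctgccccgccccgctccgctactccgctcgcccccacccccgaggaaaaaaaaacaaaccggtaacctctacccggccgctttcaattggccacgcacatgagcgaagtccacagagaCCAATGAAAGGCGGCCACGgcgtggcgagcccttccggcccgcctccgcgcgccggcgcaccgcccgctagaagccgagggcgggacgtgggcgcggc
Hspa5 (chr2:34771840-34772089, + strand): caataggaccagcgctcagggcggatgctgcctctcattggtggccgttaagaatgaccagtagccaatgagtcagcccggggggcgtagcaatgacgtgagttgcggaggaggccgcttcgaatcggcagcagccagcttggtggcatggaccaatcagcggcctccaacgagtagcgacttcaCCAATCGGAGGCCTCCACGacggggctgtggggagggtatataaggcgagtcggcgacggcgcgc
Ern1 (chr11:106487797-106488046, - strand): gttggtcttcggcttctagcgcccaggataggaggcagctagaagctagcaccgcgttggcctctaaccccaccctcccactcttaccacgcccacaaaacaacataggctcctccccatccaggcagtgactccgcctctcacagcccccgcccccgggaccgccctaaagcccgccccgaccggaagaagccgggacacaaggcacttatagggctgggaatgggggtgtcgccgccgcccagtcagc

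All values are log2 signals per gene, differences are log2 differences ± SE, and a gene is called where limma's Benjamini-Hochberg adjusted p over the 11634 genes is under 0.05. Signals are not compared between genes, because probe sets differ in brightness. Array medians ran from 4.79 to 4.93, and arrays of 1 group correlated at 0.989 to 0.995. Bhlhe40 itself was lower in KO than in WT in all 3 cell sets, by -2.17 ± 0.19 in AM, -1.89 ± 0.15 in naive LPM and -0.93 ± 0.19 in IL-4c LPM (limma adjusted p 6.1e-05, 6.4e-06 and 0.013). In LysM arrays it measured 8.75 and 8.83, against 8.77 and 8.99 in IL-4c WT, so the signal did not mark the LysM arrays as deleted. Where its probes lie relative to the deleted part is not given here, so this probe set may check nothing in LysM. LysM therefore means the arrays labelled so. Markers of LPM (Gata6, Icam2, Timd4, Prg4) averaged 10.09 to 10.80 per LPM array against 4.34 to 4.67 in AM. Markers of AM averaged 9.58 to 10.03 in AM against 6.01 to 6.59 in LPM. Siglecf, Itgax, Car4 and Pparg were lower in naive WT LPM than in WT AM, Fabp4 was higher (1.87 ± 0.21) and Marco was not called. With IL-4c, Car4 rose in WT and KO LPM (3.16 and 3.43) and Prg4 fell (-1.13 and -0.94). Of the macrophage markers, Csf1r, Mertk and Fcgr1 fell with IL-4c in both genotypes and Cd68 rose.

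IL-4c raised a large share of the machinery in WT LPM. Of the 40 members, 22 rose and 5 fell, where 22.0% and 19.2% of all tested genes were called higher and lower. The members' median difference was 0.39 against 0.02 over all tested genes. The groups with the highest medians were the disulfide isomerases (0.89), the lumenal chaperones and cofactors (0.56) and the Sec61 channel with its associated TRAP complex (0.55). The stress sensors with Xbp1 (-0.37) and the signal peptidase (-0.04) had medians below 0. The brightest probe set of each array read 13.15 to 13.33 on the 10 untreated arrays, and all 6 IL-4c arrays exceeded this, at 13.67 to 13.84. Whether all arrays were processed together is not stated in the sources used here, and the part of this gap in the IL-4c differences was not tested. After a second quantile normalization over all 16 arrays, 22 members rose and 5 fell in WT, and 29 rose and 3 fell in KO.

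**Figure D1:**
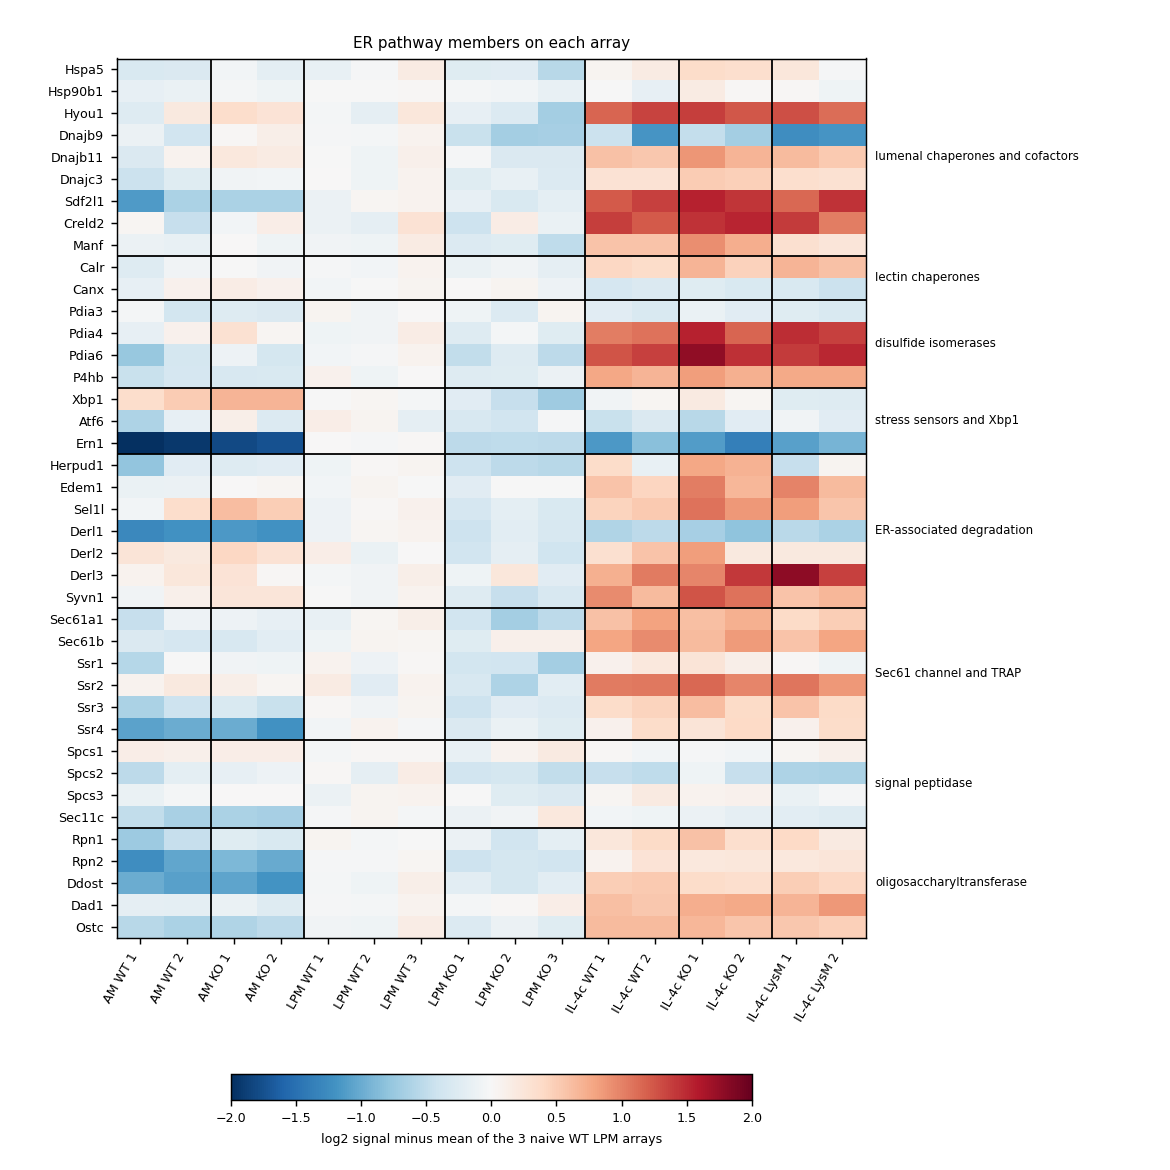
Heat map of the 40 members (rows, ordered by role) on each of the 16 arrays (columns). Colour gives the log2 signal minus the mean of the 3 naive WT LPM arrays, from -2 (blue) to 2 (red); the 6 IL-4c arrays are red for most chaperones, isomerases and ERAD genes, and the 4 AM arrays are blue for Ern1, Derl1, Rpn2 and Ddost.

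Among lumenal chaperones and cofactors, 6 of 9 rose in WT and 1 fell. Sdf2l1, a cofactor of the chaperone BiP (chr16:17130138-17132383), measured 7.88, 8.03 and 8.06 on the naive WT arrays and 9.22 and 9.36 after IL-4c. Both IL-4c arrays stood above every naive array, a difference of 1.30 ± 0.15 (2.46-fold, limma adjusted p = 4.4e-06). Creld2, a protein with disulfide isomerase activity induced by ER stress, measured 7.12, 7.05 and 7.52 in naive WT and 8.61 and 8.45 after IL-4c, without overlap (1.30 ± 0.19, limma adjusted p = 6.9e-05). Hyou1, a large chaperone that exchanges the nucleotide of BiP, went from 7.29, 7.15 and 7.55 to 8.50 and 8.68 (1.26 ± 0.17, limma adjusted p = 3.1e-05). The other risers of the group, Manf, Dnajb11 and Dnajc3, differed by 0.57, 0.56 and 0.29. Dnajc3 was called in 1 of 5 fits that left out an array.

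Hspa5, which encodes BiP, the central chaperone of the ER lumen (chr2:34772090-34776529), was not called in WT. Its signals were 10.66, 10.79 and 10.98 in naive WT and 10.87 and 10.97 after IL-4c, and the groups overlapped (0.11 ± 0.14). Hsp90b1, the HSP90 of the ER lumen, was not called either (-0.08). Dnajb9, a BiP cofactor that restrains IRE1, fell by 0.80 ± 0.17 (limma adjusted p = 0.0016). Its IL-4c WT arrays were far apart, at 9.43 and 8.68, and both lay below the 9.84, 9.81 and 9.92 of naive WT. Its call was lost in 1 of 5 fits that left out an array, with adjusted p up to 0.06.

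Of the 4 disulfide isomerases, which form and rearrange disulfide bonds, 3 rose. Pdia6 (chr12:17266589-17284785) had the largest difference of all 40 members in WT: 9.19, 9.23 and 9.32 in naive arrays against 10.51 and 10.61 after IL-4c (1.31 ± 0.15, 2.49-fold, limma adjusted p = 5.1e-06). Pdia4 rose by 1.06 ± 0.15 and P4hb, also a subunit of collagen prolyl hydroxylase, by 0.73 ± 0.11. Pdia3, the isomerase that works with the lectin chaperones, was not called (-0.27). The lectin chaperones, which hold newly glycosylated chains, split. The lumenal Calr rose by 0.38 ± 0.12 and its membrane-bound relative Canx fell by 0.31 ± 0.12 (limma adjusted p 0.014 and 0.038). With 1 array left out, Calr was called in 3 of 5 fits and Canx in 0 of 5.

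Neither the sensors nor Xbp1 rose in WT. Ern1, the sensor kinase and nuclease IRE1alpha (chr11:106397620-106487796), measured 8.24, 8.21 and 8.27 in naive WT and 7.09 and 7.40 after IL-4c. Every IL-4c array lay below every naive one, and Ern1 fell by 0.99 ± 0.13 (limma adjusted p = 2.9e-05). Xbp1, the factor activated by IRE1, measured 8.04, 8.09 and 8.0 in naive WT and 7.98 and 8.09 after IL-4c, overlapping throughout (-0.01 ± 0.13). Atf6, the sensor cleaved in the Golgi, was not called (-0.37 ± 0.17).

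Of 7 ERAD genes, 5 rose and 1 fell in WT. Derl3, one of the derlins that help to move chains out of the ER, rose by 0.87 ± 0.18 from signals of 4.95, 4.91 and 5.10, close to the array medians, to 5.69 and 6.03. Syvn1, the ubiquitin ligase HRD1 (chr19:6046576-6053718), rose by 0.79 ± 0.13 (limma adjusted p = 0.00013), and Edem1, a mannosidase-like protein that marks glycoproteins for disposal, by 0.50 ± 0.14. Sel1l, the partner of HRD1, and Derl2 rose by 0.49 and 0.45. Derl1 went the other way: 9.82, 9.97 and 9.99 in naive WT against 9.33 and 9.41 (-0.55 ± 0.12, limma adjusted p = 0.0012). Herpud1, a membrane protein that organises the HRD1 complex and is induced by ER stress (chr8:94386429-94395371), was not called, with 8.42, 8.53 and 8.55 against 8.87 and 8.35.

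All 6 Sec61 channel and TRAP genes tested lay higher after IL-4c without overlap, and 4 of them were called, where 34.0% of all tested genes lay higher without overlap. Ssr2, a TRAP subunit, rose by 1.05 ± 0.15 from 9.21, 8.82 and 9.11 to 10.09 and 10.10. Sec61b and Sec61a1, the small and the pore-forming channel subunits, rose by 0.87 ± 0.14 and 0.69 ± 0.14. The 3 probe sets of Sec61b differed in size of response, at 0.87 for the brightest, which was used, and 0.69 and 0.20 for the others. Which gene copies these probe sets match was not settled, so the size of the Sec61b response is uncertain. Ssr1 and Ssr4 were not called (0.15 and 0.23). Of the 5 oligosaccharyltransferase genes, 3 rose: Ostc by 0.63 ± 0.11, Dad1 by 0.57 ± 0.11 and Ddost by 0.51 ± 0.11. The ribophorins Rpn1 and Rpn2 were not called (0.30 and 0.17). In the signal peptidase, 0 of 4 genes rose. Spcs2 fell by 0.48 ± 0.14 (limma adjusted p = 0.013; 3 of 5 fits with 1 array left out), and Spcs1, Spcs3 and Sec11c differed by -0.01, 0.11 and -0.07.

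In KO LPM, 29 of 40 members rose with IL-4c and 2 fell (21.9% and 15.4% of all tested genes). The members' median was 0.71 against 0.04 over all tested genes. All 22 members that rose in WT also rose in KO. Hspa5, Xbp1, Herpud1, Ssr1, Ssr4, Rpn1 and Rpn2 were called higher in KO and not in WT, and Ern1 and Derl1 fell in both. Dnajb9, Canx and Spcs2 were called lower in WT and not in KO. A call in one genotype and not in the other does not show that the responses differ, and the test of that difference follows below.

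**Figure D2:**
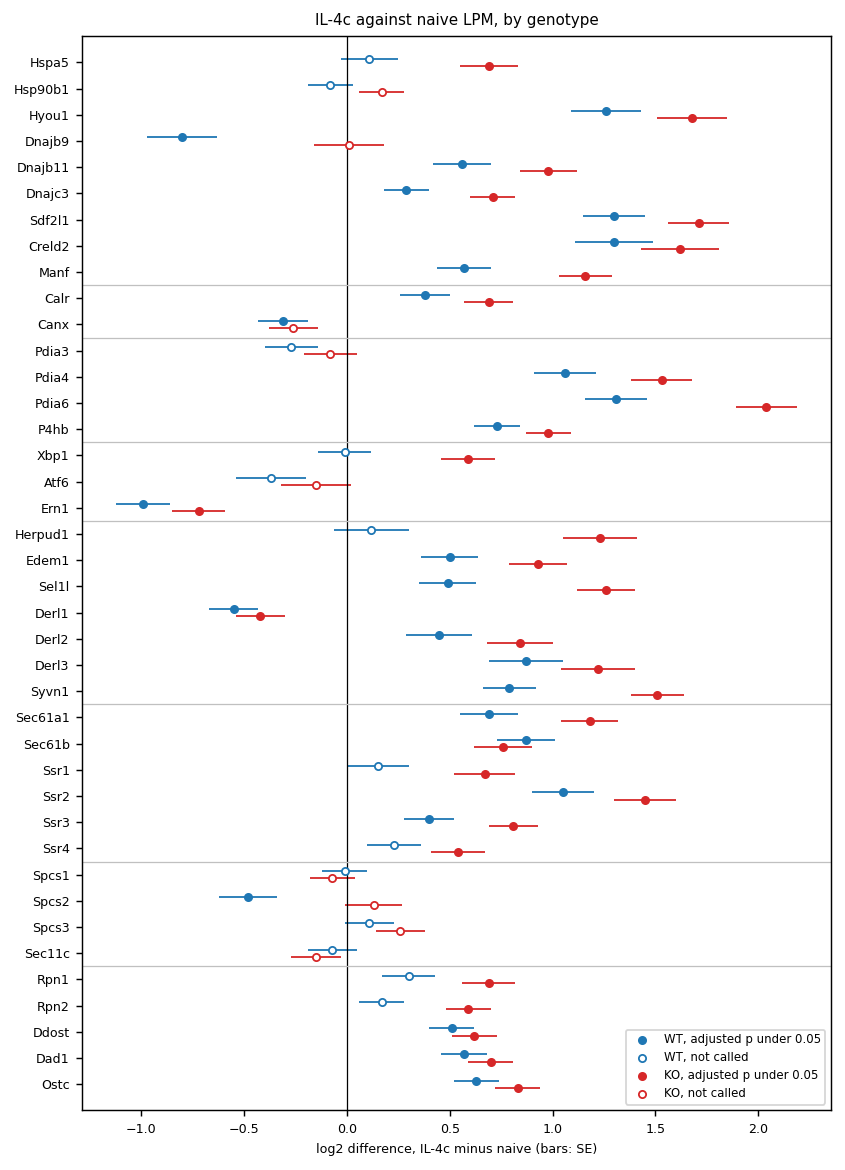
IL-4c minus naive log2 difference of each member in WT (blue) and KO (red) LPM, with SE bars; filled points have a limma adjusted p under 0.05. The members are ordered by role. Pdia6 is farthest right in KO at 2.04, Ern1 farthest left in WT at -0.99, and the signal peptidase genes lie near 0 in KO.

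Pdia6 again led, from 8.75, 8.99 and 8.72 in naive KO to 11.02 and 10.71 after IL-4c (2.04 ± 0.15, 4.13-fold, limma adjusted p = 1.3e-07). Sdf2l1 rose by 1.71 ± 0.15 (3.27-fold), Hyou1 by 1.68 ± 0.17 (3.21-fold) and Creld2 by 1.62 ± 0.19 (3.06-fold). These 3 chaperones and cofactors and the isomerases Pdia6 and Pdia4 (1.53 ± 0.15) made up the top of the list in KO together with Syvn1 (1.51 ± 0.13). Hspa5 rose by 0.69 ± 0.14: its naive KO signals were 10.56, 10.59 and 10.26, and both IL-4c KO arrays, at 11.17 and 11.14, stood above them.

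In ERAD, 6 of 7 genes rose in KO and Derl1 fell by 0.42 ± 0.12. Syvn1 went from 7.63, 7.44 and 7.58 to 9.15 and 8.98 (limma adjusted p = 5.4e-07), and its partner Sel1l rose by 1.26 ± 0.14. Herpud1 rose by 1.23 ± 0.18, from 8.09, 7.97 and 7.94 to 9.28 and 9.19 (limma adjusted p = 0.00011). The IL-4c KO arrays were the highest of all 16 for Herpud1. Xbp1 rose by 0.59 ± 0.13, from 7.81, 7.58 and 7.33 to 8.23 and 8.09, which brought it to about the 7.98 and 8.09 of IL-4c WT. Ern1 fell by 0.72 ± 0.13.

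All 6 Sec61 and TRAP genes and all 5 oligosaccharyltransferase genes rose in KO, by 0.54 to 1.45 and by 0.59 to 0.83. Ssr2 (1.45 ± 0.15) and Sec61a1 (1.18 ± 0.14) led the first group, and Ostc (0.83 ± 0.11) the second. No signal peptidase gene was called (-0.15 to 0.26).

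The difference between the WT and KO responses, (KO IL-4c minus KO naive) minus (WT IL-4c minus WT naive), was above 0 for 37 of 40 members, against 53.5% of all tested genes. No member was called, where 0.55% of all tested genes were, so no single member's response is shown to differ by genotype. The members' median was 0.39 against 0.03 over all tested genes, and 17 of 40 had an unadjusted p under 0.05, against 13.1% of all tested genes. Herpud1 came closest (1.12 ± 0.26, 95% interval 0.56 to 1.67, limma adjusted p = 0.069), followed by Syvn1 (0.73 ± 0.18, limma adjusted p = 0.082), Sel1l (0.77 ± 0.20, limma adjusted p = 0.09) and Pdia6 (0.73 ± 0.21, limma adjusted p = 0.12). With an intensity trend and robust variance 2 members were called, and without replicate 1 of IL-4c WT 2 were. Over all fits the adjusted p of Herpud1 ran from 0.036 to 0.27. This difference holds the genotype difference of naive LPM as well as that of IL-4c LPM, and both follow.

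**Figure D3:**
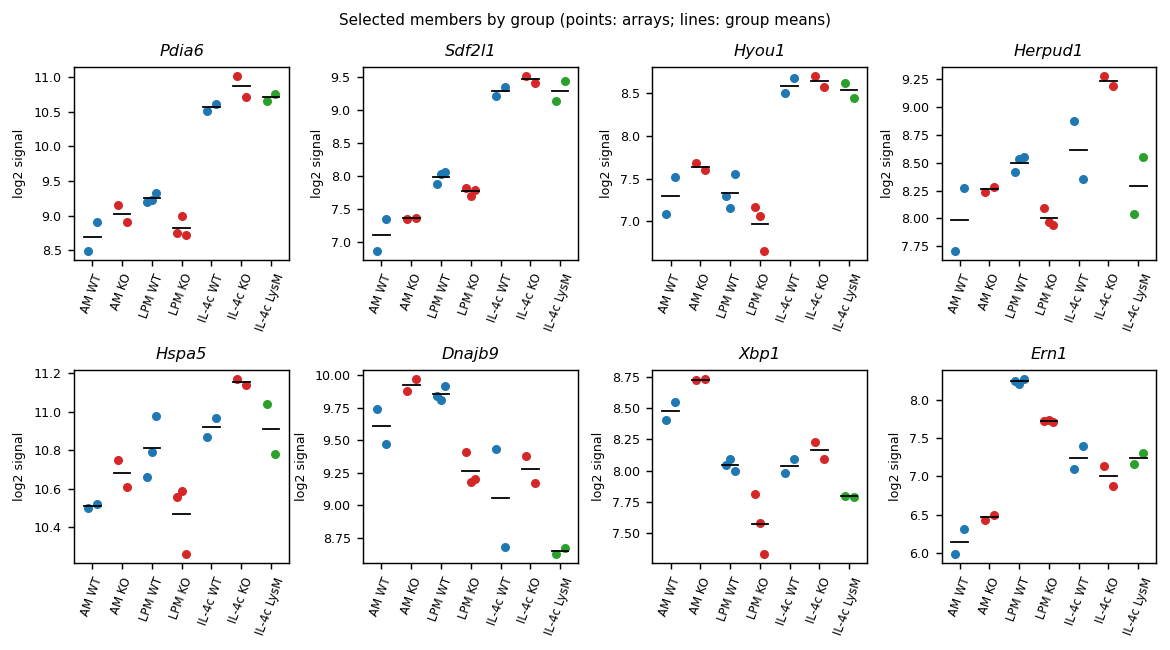
Log2 signal of 8 members in the 7 groups; points are arrays and lines are group means, with WT in blue, KO in red and LysM in green. Herpud1 and Hspa5 are highest in IL-4c KO, Dnajb9 and Ern1 are highest in AM or naive LPM, and Xbp1 is highest in AM. Vertical axes differ between panels and do not start at 0.

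In naive LPM the members lay lower in KO than in WT. The difference was below 0 for 37 of 40, where 43.2% of all tested genes were above 0, with a median of -0.23 against -0.03 over all tested genes. With 1 naive array left out the members' median ran from -0.26 to -0.23. Called lower were 2 members and higher 0, where 1.35% and 0.533% of all tested genes were called. Ern1 measured 8.24, 8.21 and 8.27 in WT and 7.72, 7.73 and 7.71 in KO, so the arrays of each genotype were close together and the groups were apart (-0.52 ± 0.12, limma adjusted p = 0.04). Sec61a1 (chr6:88503607-88518800) measured 8.99, 9.18 and 9.25 in WT and 8.76, 8.46 and 8.61 in KO (-0.53 ± 0.13, limma adjusted p = 0.042). With 1 array left out neither was called in any of 6 fits, and a second quantile normalization left 0 members called.

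Other members had lower signals in naive KO without a call. Dnajb9 measured 9.41, 9.18 and 9.20 in KO against 9.84, 9.81 and 9.92 in WT (-0.59 ± 0.16, limma adjusted p = 0.068). Xbp1 measured 7.81, 7.58 and 7.33 against 8.04, 8.09 and 8.0 (-0.46 ± 0.12, limma adjusted p = 0.06). Herpud1 differed by -0.49 and Ssr1 by -0.48. By role, medians ran from -0.46 for the sensors with Xbp1 and -0.35 for Sec61 and TRAP to -0.09 for the signal peptidase and -0.07 for the lectin chaperones. All 3 KO arrays lay below all 3 WT arrays for 25 of 40 members, against 15.9% of all tested genes. After a second quantile normalization this held for 13 members and 11.0% of all tested genes, and the members' median was -0.14.

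The 75th percentile of all probe sets was 6.64 on replicates 1 and 2 of naive KO LPM, 6.74 on replicate 3, and 6.74 to 6.75 on the naive WT LPM arrays. The mean over the members was 8.90, 8.92 and 8.88 on the KO arrays and 9.13, 9.12 and 9.22 on the WT arrays. The KO means were close together, where the pooled within-group SD of the member mean was 0.056. With a second quantile normalization the members' median moved from -0.23 to -0.14, and members above 0 from 3 to 8. The part of the lower percentile in the values of replicates 1 and 2 of naive KO LPM was not tested.

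**Figure D4:**
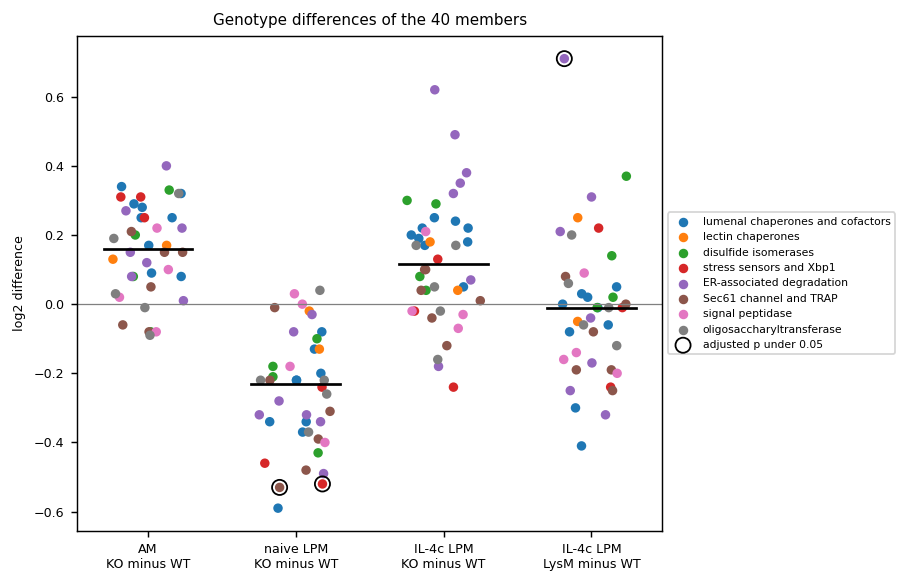
KO minus WT (or LysM minus WT) log2 difference of each of the 40 members in AM, naive LPM and IL-4c LPM; colours give the role, black lines the medians and black rings a limma adjusted p under 0.05. The medians are 0.16 in AM, -0.23 in naive LPM, 0.12 in IL-4c KO and -0.01 in IL-4c LysM. Horizontal position within a column has no meaning.

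After IL-4c, no member was called between KO and WT, where 3.63% of all tested genes were called in either direction. An unadjusted limma p under 0.05 was met by 4 of 40 members, against 16.9% of all tested genes. The difference was above 0 for 30 of 40 (46.9% of all tested genes), with a median of 0.12 against -0.02 over all tested genes. Without replicate 1 of IL-4c KO the members' median was 0.06. The ERAD genes had the highest median of the 8 roles (0.35). Sel1l measured 8.89 and 8.67 in KO against 8.24 and 8.33 in WT (0.49 ± 0.15, limma adjusted p = 0.094). Herpud1 measured 9.28 and 9.19 in KO against 8.87 and 8.35 in WT (0.62 ± 0.20, limma adjusted p = 0.11). Syvn1 (0.38) and Edem1 (0.35) followed, and for all 4 genes both KO arrays lay above both WT arrays. Such an order upward was met by 17 members, against 20.4% of all tested genes. With 1 array left out these sizes moved: Herpud1 differed by 0.36 without replicate 2 of IL-4c WT and by 0.88 without replicate 1, Syvn1 by 0.22 without replicate 2 of IL-4c WT, and Edem1 by 0.17 without replicate 1 of IL-4c KO and by 0.52 without replicate 2.

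LysM minus WT after IL-4c had a median of -0.01, equal to that of all tested genes, with 15 of 40 members above 0 (48.3% of all tested genes). Derl3 was called higher (0.71 ± 0.20, 95% interval 0.30 to 1.13, limma adjusted p = 0.034) and no other member was, where 4.8% of all tested genes were called higher. Its signals were 6.78 and 6.35 in LysM, 5.69 and 6.03 in WT, and 5.96 and 6.40 in KO, so the LysM and KO arrays overlapped. Its call held in 1 of 4 fits that left out an array. Herpud1 measured 8.04 and 8.55 in LysM, within or below the 8.87 and 8.35 of WT (-0.32), and Sel1l 8.63 and 8.35 (0.21). Dnajb9 measured 8.62 and 8.67 in LysM, the lowest of all 16 arrays, against 9.43 and 8.68 in WT (-0.41). That difference was -0.79 without replicate 2 of IL-4c WT and -0.04 without replicate 1. KO and LysM were both set against the same WT arrays and were not compared with each other.

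In AM, KO minus WT was above 0 for 34 of 40 members and for 61.4% of all tested genes, with a median of 0.16 against 0.05 over all tested genes. No member was called, where 0.12% of all tested genes were, and 4 of 40 had an unadjusted p under 0.05, against 5.33% of all tested genes. Sel1l differed most (0.40 ± 0.15, limma adjusted p = 0.91), with 8.42 and 8.29 in KO against 7.75 and 8.15 in WT. Both KO arrays lay above both WT arrays for 24 members, against 24.0% of all tested genes. Replicate 1 of WT AM had the lowest mean over the members of all arrays, 8.74, against 8.88 on the other WT array and 8.99 and 8.93 on the KO arrays. Without that array the members' median was 0.07.

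The naive LPM difference minus the AM difference was below 0 for 37 of 40 members, where 38.0% of all tested genes were above 0. The members' median was -0.44 against -0.09 over all tested genes, and -0.28 against -0.01 after a second quantile normalization. No member was called, where 0.249% of all tested genes were, and 21 of 40 had an unadjusted p under 0.05 against 13.1% of all. Ern1 (-0.83 ± 0.19, limma adjusted p = 0.092), Xbp1 (-0.71 ± 0.19) and Dnajb9 (-0.91 ± 0.25, limma adjusted p 0.15 for both) had the lowest p-values. Without replicate 2 of WT AM, Ern1 was called.

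Between the tissues, WT LPM had more RNA than WT AM for Ern1 and for 4 of the 5 oligosaccharyltransferase members. Of 40 members 14 were higher in LPM and 1 was lower (21.2% and 17.1% of all tested genes), with a median of 0.27 against 0.02. Ern1 had the largest difference of any member: 5.98 and 6.31 in AM and 8.24, 8.21 and 8.27 in LPM (2.09 ± 0.13, 4.25-fold, limma adjusted p = 2.2e-09). Derl1 was higher by 1.26 ± 0.12, with 8.63 and 8.71 in AM. All 5 oligosaccharyltransferase genes lay higher in LPM without overlap (32.2% of all tested genes did), and 4 were called: Rpn2 by 1.14 ± 0.11, Ddost by 1.04 ± 0.11, Ostc by 0.60 and Rpn1 by 0.59. Tusc3, an oligosaccharyltransferase subunit that is not a member, was lower in LPM (-1.33 ± 0.13, limma adjusted p = 3e-07). It belongs to a list of 18 other translocation, peptidase and glycosylation genes, of which 2 were higher and 1 was lower. Ssr4 (1.02 ± 0.13), Sdf2l1 (0.88 ± 0.15), Sec11c (0.57 ± 0.12) and Pdia6 (0.55 ± 0.15) were also higher. Xbp1 was lower in LPM, at 8.04, 8.09 and 8.0 against 8.40 and 8.55 in AM (-0.43 ± 0.13, limma adjusted p = 0.017).

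**Figure D5:**
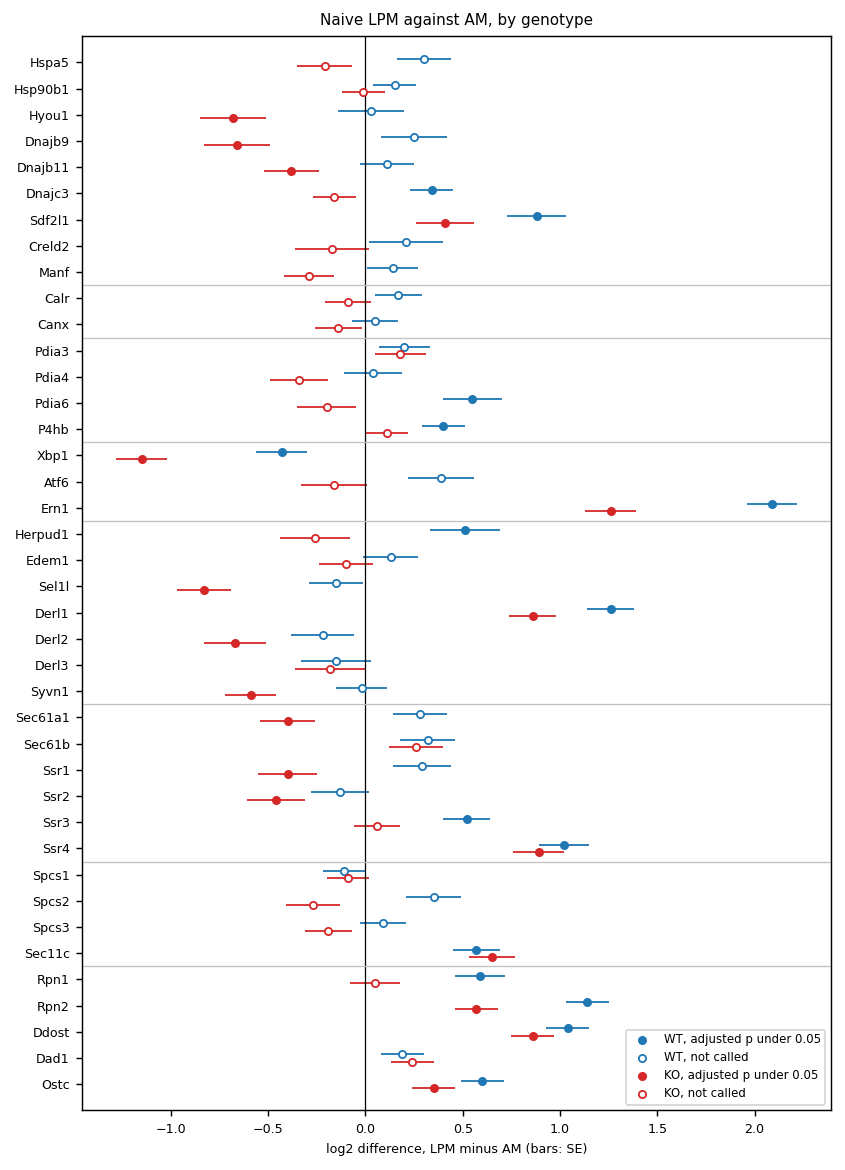
Naive LPM minus AM log2 difference of each member in WT (blue) and KO (red), with SE bars; filled points have a limma adjusted p under 0.05. Ern1 is farthest right in both, at 2.09 and 1.26, and the oligosaccharyltransferase genes at the bottom lie right of 0, while Xbp1 and Sel1l in KO lie farthest left at -1.15 and -0.83.

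In KO, 8 members were higher in LPM and 10 lower (17.3% and 22.8% of all tested genes), with a median of -0.16 against -0.01. The 8 higher genes were all among the 14 of WT: Ern1 (1.26 ± 0.13), Ssr4, Derl1, Ddost, Sec11c, Rpn2, Sdf2l1 and Ostc. The 10 lower ones were Xbp1, Sel1l, Hyou1, Derl2, Dnajb9, Syvn1, Ssr2, Sec61a1, Ssr1 and Dnajb11, of which only Xbp1 was also called lower in WT. Xbp1 measured 7.81, 7.58 and 7.33 in KO LPM against 8.72 and 8.73 in KO AM (-1.15 ± 0.13, limma adjusted p = 2.8e-06). Sel1l measured 7.46, 7.61 and 7.50 against 8.42 and 8.29 (-0.83 ± 0.14). The split depended on the scaling: 10 higher and 6 lower after a second quantile normalization, and 6 and 12 once each array was centred on its median. The members' median was -0.06 and -0.26 under these scalings, and -0.10 without replicate 1 of KO AM. Without replicate 2 of KO AM, 6 were higher and 5 lower.

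Counts were also taken by promoter, with no test. Of the 9 members with an ERSE, 6 rose and 1 fell with IL-4c in WT (median 0.38), and of the 22 tested members with a window and no ERSE, 11 rose and 3 fell (median 0.35). In KO the counts were 7 and 0 of 9 (median 0.71) and 17 and 1 of 22 (median 0.69). With ERSE-II counted as well, 7 rose and 1 fell of 11 in WT (median 0.38) against 10 and 3 of 20 without either form (median 0.35). In KO 9 rose and 0 fell of 11 (median 0.98), against 15 and 1 of 20 (median 0.68). Among the 9 with an ERSE, Pdia6 had the largest IL-4c difference and Canx the lowest. Of the 4 genes with a CACGTG E-box, none was called between KO and WT in any cell set, and Derl3 was called in LysM. Of the 27 tested members with a window and no E-box, 1 was called in naive LPM and 0 in AM, IL-4c KO or LysM. Over all tested genes 0.12% were called in AM, 1.88% in naive LPM, 3.63% in IL-4c KO and 8.67% in LysM. With so few calls, these counts cannot tell members with an E-box from those without.

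Other genes of the same pathway, grouped in 6 lists of 92 tested genes that do not overlap the members, gave 29 higher and 6 lower with IL-4c in WT and 56 and 5 in KO. Over all tested genes the shares were 22.0% and 19.2% in WT and 21.9% and 15.4% in KO, and the counts of each list are read against these. The PERK branch, which slows translation under ER stress, had 0 of 5 tested genes higher and 1 lower with IL-4c in WT: Ppp1r15a, a phosphatase subunit that restores translation, fell by 0.86 ± 0.16. In KO, Ppp1r15a fell by 0.50 ± 0.16 and Ddit3, the factor CHOP, rose by 0.64 ± 0.21. Of 6 other ER stress sensors and proteases 1 rose in WT (Atf6b, a relative of Atf6, by 0.69 ± 0.12), and 5 rose in KO, led by Tmbim6 (1.05 ± 0.17). Of 20 other folding and oxidation enzymes 10 rose and 1 fell in WT, and 16 rose and 1 fell in KO. Ero1a, the oxidase that recharges the disulfide isomerases, rose by 1.34 ± 0.18 in WT and 1.37 ± 0.18 in KO.

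Other translocation, peptidase and glycosylation genes rose in 6 of 18 cases in WT, with 1 lower, and in 10 of 18 in KO, and the beta subunit of the signal recognition particle receptor, Srprb, by 0.73 ± 0.13 and 1.07 ± 0.13. Of 26 genes of vesicle export and retrieval, 9 rose in WT and 20 in KO, with 0 lower in either. Surf4, a cargo receptor of the early secretory pathway, rose by 1.10 ± 0.15 and 1.25 ± 0.15. Other degradation genes split, with 3 higher and 3 lower of 17 in WT and 4 and 3 in KO. Between naive KO and WT LPM, 3 of the 92 genes were called lower and 0 higher (1.35% and 0.533% of all tested genes): Wfs1 (-0.51), Ppib (-0.49) and Srprb (-0.49). After IL-4c, 1 of 92 was called between KO and WT (3.63% of all tested genes), Ero1b (0.61 ± 0.16, limma adjusted p = 0.0498). Between LysM and WT 1 of 92 was called (8.67% of all tested genes), Srp68 (-0.47 ± 0.14, limma adjusted p = 0.047).

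Plasma cells are rich in ER, and markers of plasma cells, B cells and other cell types were read beside the members. The 5 plasma cell markers averaged 4.06 to 4.92 per array, and Jchain measured 3.10 to 3.49 on the LPM arrays, below the array medians. Pou2af1, another of the 5, measured 4.97 to 5.74 on the naive LPM arrays, above the array medians. It fell with IL-4c in WT (-0.62 ± 0.19) and KO (-0.83 ± 0.19), the 1 marker called of 3 plasma cell markers tested. The part of Pou2af1 in the member values was not tested. The 7 B cell markers averaged 4.15 to 4.94 in naive LPM and 3.62 to 3.85 in IL-4c LPM. All 4 B cell markers tested fell with IL-4c in both genotypes, Cd79a by 1.65 ± 0.26 in WT and 1.05 ± 0.26 in KO, and their part in the member values was not tested. In AM, Jchain was 6.84 on replicate 2 of KO and 4.30 to 5.20 on the others. The 4 lung epithelial markers averaged 5.38 and 6.35 on the WT AM arrays and 5.85 to 6.27 on the KO AM arrays. They did not move together on replicate 1 of WT AM, the array with the lowest member mean: Sftpc was 3.82 there and 6.22 to 6.57 on the other AM arrays, whereas Epcam was 8.12 there and 6.92 to 7.55 on the others. Their part in the AM values was not tested.

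Of the 2 monocyte markers measured, Plac8 was 9.38 and 9.03 in IL-4c KO and 7.12 and 9.41 in LysM, against 4.66 and 3.14 in IL-4c WT. The other, Ccr2, was 4.21 and 3.86 in KO and 4.16 and 4.13 in LysM, against 4.71 and 4.06 in WT, so it was not raised with Plac8. Of the 3 neutrophil markers tested, Csf3r was called between KO and WT in each cell set, higher in AM (1.28 ± 0.19), lower in naive LPM (-0.85 ± 0.15) and higher after IL-4c (1.07 ± 0.19). The defining neutrophil marker Ly6g was at 2.42 to 3.46 on every array, below the array medians. In each group, however, 2 of the 5 neutrophil markers exceeded the array median on all arrays. S100a8 was among them, at 5.90 to 7.88, and it fell with IL-4c in WT (-1.19 ± 0.27). Csf3r fell with IL-4c in WT (-3.74 ± 0.17) and KO (-1.82 ± 0.17), and the difference between these responses was called (1.92 ± 0.24). Csf3r was also higher in LysM than in WT (1.29 ± 0.19). The third marker tested, Cxcr2, rose with IL-4c in KO (0.44 ± 0.15). Cd2, a T and NK cell marker, was 10.97 to 11.21 on the AM arrays and 4.69 to 6.20 on the LPM arrays. Of the dendritic cell markers, Clec9a was lower in WT LPM than in WT AM (-2.29 ± 0.23) and Cd209a was higher (1.95 ± 0.36). With IL-4c, Cd209a rose in KO (2.07 ± 0.36) and Ccr7 fell in WT (-0.61 ± 0.20). The part of Plac8, of these neutrophil markers, of Cd2 and of the dendritic cell markers in the member values was not tested. In such bulk samples, fewer cells of a type and less RNA per cell cannot be told apart.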

How the data were processed

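The authors deposited log2 signals of 30177 probe sets on each of 16 arrays. RMA, which corrects background, equalises distributions and summarises probes, made them, per the submitters' processing notes. The set of arrays it was run on is not stated in the sources used here. Values scaled this way cannot show a change in total RNA per cell. Groups came from sample titles; no label gives a processing batch. Probe sets with 1 symbol (21789) were kept, with the brightest per gene, and genes above the median of an array on 2 or more arrays were tested. Group means were fitted over all 16 arrays in R 4.3.3 with limma 3.58.1 (9 residual and 6.61 prior degrees of freedom). Within each of 10 comparisons, p-values were Benjamini-Hochberg adjusted over 11634 genes. The fit was tested on simulated data. The members and lists were chosen with earlier results of these data known.

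Every member could be named; in each role at most the 3 called members with the largest differences were given in full, and from each other list at most the 3 largest called genes could be named. Members named for other reasons, such as those near the threshold, were chosen after their values were seen. Coordinates are gene positions in RefSeq's table (GRCm38.p6). With 2 or 3 arrays a group, the number of arrays limits the precision. The pairing of replicate numbers is not stated in the labels, and correlations of same-numbered arrays ran from -0.139 to 0.148. Alternatives were quantile normalization applied again, arrays centred on the median, no filter on dim genes, averaging a gene's probe sets, a robust variance with an intensity trend, fitting only the arrays compared, a replicate block and leaving out each array. Counts of members without overlap under 2 scalings were added after seeing the data. Python 3.11.15 and matplotlib 3.10.9 drew the figures.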

Additional observations from a re-analysis of the deposited data

Results flagged for a closer look

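Signal appeared in probe sets that no comparison used. Sec61g shares 4 probe sets with 2 other symbols each, and in 3 of them both IL-4c WT arrays lay above all 3 naive WT arrays. The differences were 0.15 (10.56 to 10.72 in naive WT, 10.78 to 10.79 after IL-4c), 0.31 (11.04 to 11.17 against 11.42) and 0.14 (10.61 to 10.76 against 10.82). They were not tested, and these probe sets do not tell which of the symbols gives the signal.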

How the results depend on the processing

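Of the results called in a comparison, 622 kept their direction and call and 36 lost the call over the 7 alternatives; with 1 array left out, 401 kept it and 70 lost it. Of the results not called, 25 and 12 became called. No called difference changed sign. In naive LPM, KO minus WT had 2 members called in the fit reported, 0 after a second quantile normalization, 0 without the filter on dim genes and 6 with trend and robust variance. Averaging probe sets gave 1 call between KO and WT after IL-4c (Pdia4). Its second probe set averaged 4.37, below the array medians, with means of 5.46 in IL-4c KO and 4.27 in IL-4c WT. The brighter probe set of Pdia4 differed by 0.29 ± 0.16 and was not called. With only the arrays compared, LysM minus WT had 0 calls and the genotype by tissue difference 1. Genotype by IL-4c had 2 with trend and robust variance and 1 with only the arrays compared. The cause was not tested.

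No label pairs the arrays by replicate number. Correlations of same-numbered arrays were not set against those of differently numbered arrays, so they cannot decide whether arrays were paired. With a replicate block, naive LPM KO minus WT had 0 calls, IL-4c in WT 24, IL-4c in KO 31, LPM minus AM 13 in WT and 14 in KO, LysM 1, and the other 4 comparisons 0. Leaving out each array gave 0 to 0 calls for AM KO minus WT, 0 to 1 for naive LPM and 0 to 0 for IL-4c LPM. It gave 0 to 1 for LysM, 19 to 25 for IL-4c in WT and 30 to 32 in KO, and 0 to 2 for genotype by IL-4c. LPM minus AM gave 11 to 18 in WT and 11 to 18 in KO, and genotype by tissue 0 to 1. With 1 array left in a group, it is assumed to vary like the other groups. Differences well under the median within-group SD of 0.171 cannot be resolved with 2 or 3 arrays.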
